A study of Drosophila melanogaster with 2 samples.

Results

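Of the 3106 reproducible CG4854-eGFP peaks in Drosophila melanogaster embryos, 1004 were bound promoters without a divergent partner. A peak was counted here when its summit lay within 500 bp of the nearest transcription start site (TSS) of a protein-coding gene in the Ensembl annotation, and when that gene had no protein-coding gene on the opposite strand, transcribed away from it, with a TSS within 500 bp. These 1004 peaks lay at 925 genes and made up the larger share of the 1687 reproducible promoter peaks. The other 683 promoter peaks lay at genes with a divergent partner, and 1419 peaks lay away from promoters. A partner at any TSS of the gene counted, so some of the 683, called divergent promoters below, lay at a start without a partner of its own. Judged at the nearest TSS alone, 1097 peaks had no partner.

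Chromatin immunoprecipitation and sequencing was done with an antibody against GFP on whole embryos aged 0 to 24 hours, male and female together, of a transgenic fly line that stably carries CG4854 with GFP at its C terminus. The 2 samples were biological replicates 3 and 2 of this 1 genotype, without a treatment, so there was no condition to compare. Both replicates' lists rest on 1 shared control file. Untagged embryos and mock precipitations were not analysed here, and whole embryos mix all embryonic cell types, so a signal cannot be assigned to a cell type.

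CG4854 encodes a zinc finger protein of the ZAD class, a family that has expanded in insects and pairs an amino-terminal zinc finger associated domain with DNA-binding zinc fingers. Many Drosophila genes sit head to head with a neighbour and share 1 stretch of DNA between both starts, whereas a promoter without such a partner drives 1 protein-coding gene from its upstream DNA. Several sequence classes are known at fly promoters, among them the TATA box of regulated genes and the DRE, M1BP and Ohler motif 7 sites of broadly expressed genes.

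Sequences at some of the strongest peaks, and at 1 peak for each other motif that differed below, are shown first, since the results turn on their strength, position and motif content. All windows shown are free of annotated exons. Each sequence is the 101 bp around the summit from the Release 6 genome (dm6) as given by RefSeq, read in the direction of transcription of the gene. Capitals mark matches to the motifs that passed a test below. The window at CG14100 lay at chr3L:19590570-19590670 (minus strand), at ph-p at chrX:2137280-2137380 (minus strand), at CG18549 at chr3R:12449141-12449241 (plus strand) and at RpL30 at chr2L:19009319-19009419 (minus strand).
CG14100: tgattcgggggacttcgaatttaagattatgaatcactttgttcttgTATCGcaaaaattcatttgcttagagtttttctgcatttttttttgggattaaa
ph-p: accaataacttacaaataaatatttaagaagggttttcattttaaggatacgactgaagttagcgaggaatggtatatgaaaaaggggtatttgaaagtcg
CG18549: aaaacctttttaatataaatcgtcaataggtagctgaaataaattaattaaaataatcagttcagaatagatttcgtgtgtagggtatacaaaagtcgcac
RpL30: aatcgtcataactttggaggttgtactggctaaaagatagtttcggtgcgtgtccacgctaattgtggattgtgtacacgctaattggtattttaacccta

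CG14100 held the short BEAF-32 core, and the windows at ph-p, CG18549 and RpL30 held none of the motifs marked in capitals. The motif examples came from EMC4 at chr3L:22868258-22868358 (minus strand) with a DRE, Art4 at chr3R:9986261-9986361 (minus strand) with Ohler motif 7, crb at chr3R:24294936-24295036 (plus strand) with an M1BP site, crp at chr2L:16287814-16287914 (minus strand) with the CTCF core, CG9743 at chr3R:30203441-30203541 (minus strand) with GAGA elements and Rtnl1 at chr2L:4997608-4997708 (minus strand) with an E-box variant.
EMC4: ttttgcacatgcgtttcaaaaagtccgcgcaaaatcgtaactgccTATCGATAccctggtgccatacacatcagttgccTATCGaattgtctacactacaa
Art4: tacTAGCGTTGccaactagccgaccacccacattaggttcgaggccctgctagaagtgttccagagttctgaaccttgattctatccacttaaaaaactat
crb: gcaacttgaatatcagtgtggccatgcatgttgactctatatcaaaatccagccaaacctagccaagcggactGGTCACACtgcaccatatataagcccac
crp: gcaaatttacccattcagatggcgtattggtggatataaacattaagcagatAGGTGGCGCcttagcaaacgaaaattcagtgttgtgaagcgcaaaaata
CG9743: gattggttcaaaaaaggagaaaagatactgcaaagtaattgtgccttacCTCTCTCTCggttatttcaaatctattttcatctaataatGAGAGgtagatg
Rtnl1: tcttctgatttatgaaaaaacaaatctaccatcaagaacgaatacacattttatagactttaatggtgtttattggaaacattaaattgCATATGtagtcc

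The peak at CG14100 was the strongest of the whole reproducible set. Signal is the authors' score per peak, in their peak caller's scale, and it ranks peaks within a list. CG14100 had a pooled signal of 1776, with 784 in replicate 3 and 988 in replicate 2, and its summit lay at −96 bp from the TSS, where negative means upstream. Ugalt, which encodes a UDP-galactose transporter, followed with a pooled signal of 1736, with 850 in replicate 3 and 895 in replicate 2. The summit at Ugalt lay at −22 bp. ph-p, which encodes the Polycomb group protein Polyhomeotic proximal, had 1273 in the pooled list, 617 in replicate 3 and 659 in replicate 2. Its summit lay at −475 bp, near the outer limit of the window. PNPase, an exoribonuclease of mitochondria, had 1217 in the pooled list, 586 in replicate 3 and 634 in replicate 2, and its summit lay 68 bp downstream of the TSS. Replicate 2 was the higher of the 2 replicates at all 4.

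The next strongest peaks lay at genes of many functions. mRpL41, a protein of the large mitochondrial ribosomal subunit, had 938 in the pooled list, 441 in replicate 3 and 499 in replicate 2. larp, a La-related RNA-binding protein, had 849 in the pooled list, 432 in replicate 3 and 423 in replicate 2. aay, a phosphoserine phosphatase, had 799 in the pooled list, 385 in replicate 3 and 413 in replicate 2. These replicate values lay close together at each of the 3 genes. The transcription factor genes Sox14 and Atf3 had pooled signals of 706 and 634. The glycolytic gene Gapdh2 had 713 in the pooled list, with 357 in both replicates. Rtnl1, a reticulon of the endoplasmic reticulum, had 659, with 272 in replicate 3 and 391 in replicate 2. Among the 25 strongest were also CG1888 at 993, Usp15-31 at 873, CG31145 at 808, SLC5A11 at 807, CG13921 at 804, Tina-1 at 736, GstE13 at 634, Fkbp14 at 616, the kinase gene fray at 597 and CG9743 at 583. The summits at PNPase and GstE13 were the 2 downstream ones among the 25, and the other 23 lay upstream of the TSS.

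Signal ran from 95.3 to 1776 over the 1004 peaks, with a median of 145 and quartiles of 112 and 219. At the 683 divergent promoters the median was 155, with quartiles of 117 and 227. Of the bound promoters without partner, 474 of 1004 (47.2%, exact 95% interval 44.1 to 50.4%) lay above the median signal of all reproducible promoter peaks, against 369 of 683 (54.0%, 50.2 to 57.8%) of divergent promoters. The odds ratio was 0.761 (95% interval 0.626 to 0.925, p = 0.00638 and 0.0128 after adjustment over 4 tests, two-sided Fisher's exact test). This difference was not stable. Within the stronger part of the reproducible set the odds ratio turned to 1.20 and did not pass, and it also failed with partners up to 1000 bp away (0.825) and without replicate 3, on the list of replicate 2 alone (0.840, exact test, adjusted p = 0.0806). The weakest peaks lay at CG7565, atms and Map205, with pooled signals of 95.6, 95.5 and 95.3. Map205 had 61.5 in replicate 3 and 32.5 in replicate 2.

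The reproducible set was the 3106 highest entries of the pooled list, which was pooled over these same 2 replicates. Presence in both lists is therefore not independent of that selection and is given as a description. A candidate summit within 100 bp was present in both replicate lists for 949 of 1004 promoters without partner (94.5%, exact 95% interval 92.9 to 95.8%) and for 638 of 683 divergent promoters (93.4%, 91.3 to 95.2%). The odds ratio was 1.22 (0.810 to 1.83, two-sided exact test, p = 0.346, adjusted p = 0.346). Of the 55 others, 32 were found in replicate 3 alone and 23 in replicate 2 alone at this match distance. The share in both lists was 75.9% with a match within 50 bp and 99.0% within 200 bp. Most of these counts thus depend on how far a summit may shift, and they do not show absence of signal. The strongest peak without a match in 1 list was at Acbp1, with a pooled signal of 291. It had 109 in replicate 3 and no candidate within 100 bp in replicate 2. Its interval also holds a summit at Piezo, with 81.1 in replicate 3 and 186 in replicate 2. Median signal was 74.6 in replicate 3 and 77.0 in replicate 2. Across the 949 peaks, log2 signal in the replicates correlated with Pearson's r of 0.717 and Spearman's rho of 0.632, a description over peaks that share 1 control and 2 libraries. Each replicate list held 30000 entries, so a match anywhere in it is a loose measure. Among the 3106 highest entries of each list, 630 of 1004 summits (62.7%) matched in both replicates and 30 in neither. At divergent promoters 458 of 683 (67.1%) matched in both and 14 in neither.

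The log2 ratio of replicate 3 to replicate 2 had a median of −0.03, with quartiles of −0.36 and 0.36, and 101 of 949 peaks (10.6%) differed by more than 2-fold. Replicate 3 was higher at 448 of these 949 promoters (47.2%, exact 95% interval 44.0 to 50.4%) and at 180 of 638 divergent promoters (28.2%, 24.8 to 31.9%). The median log2 ratio at divergent promoters was −0.28, and the difference between the classes was not tested. The 3 ratios furthest toward replicate 3 were at RapGAP1, with 86.0 in replicate 3 and 13.0 in replicate 2, Ip6k, with 74.3 in replicate 3 and 12.9 in replicate 2, and emc, with 90.9 in replicate 3 and 17.2 in replicate 2. The 3 furthest toward replicate 2 were at PGRP-LB, with 16.6 in replicate 3 and 86.4 in replicate 2, Cpsf6, with 25.8 in replicate 3 and 110 in replicate 2, and chb, with 25.4 in replicate 3 and 83.8 in replicate 2. All 6 had pooled signals from 96.0 to 153, far below the strongest peaks. Some were secondary summits beside a stronger one at the same start. The chb summit shares its interval with a chb summit that had 272 in each replicate. Near the Ip6k summit lay another with 168 in replicate 3 and 192 in replicate 2. A stronger RapGAP1 summit, with a pooled signal of 139, lay at −214 bp from the same TSS. These ratios therefore describe single summits and not whole promoters.

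**Figure D1:**
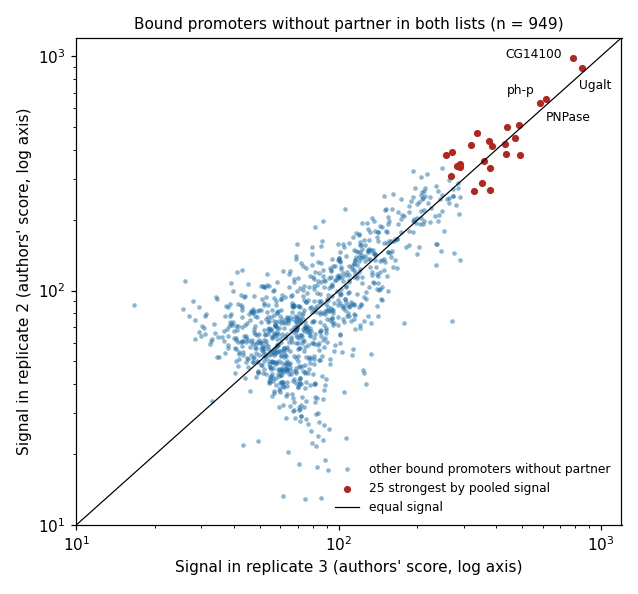
Signal in replicate 3 (horizontal, authors' score, log axis) against replicate 2 (vertical, authors' score, log axis) for the 949 bound promoters without partner that had a candidate in both lists, with the 25 strongest by pooled signal in red and the line of equal signal in black. Among the 25 strongest the log2 ratio furthest from 0 is −0.55, at GstE13, and the widest spread is among weak peaks such as PGRP-LB, with 16.6 in replicate 3 and 86.4 in replicate 2.

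CG4854-eGFP summits at promoters without partner lay mostly upstream of the TSS. Upstream summits made up 844 of 1004 (84.1%, exact 95% interval 81.7 to 86.3%) at these promoters and 1287 of 2426 (53.1%, 51.0 to 55.1%) among low candidates at promoters without partner. Low candidates are entries of the pooled list of 30000 that overlap no reproducible peak and lie below the median signal of such entries. The odds ratio was 4.67 (3.87 to 5.63, two-sided exact test, p = 1.90e-70, adjusted p = 7.60e-70). At divergent promoters, measured to the nearer TSS, 550 of 683 (80.5%, 77.4 to 83.4%) lay upstream. The odds ratio against these was 1.28 (0.990 to 1.64), and it was 0.992 without replicate 2 and 1.54 without replicate 3. The rule that splits the 2 classes sets how much upstream DNA a summit can fall in, so no test is read from this difference.

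The summits spread further upstream than at divergent promoters. The median position was −114.5 bp from the TSS (quartiles −220.5 and −30.75), against −68 bp (−110.5 and −15) at divergent promoters and −16.5 bp among low candidates. More than 200 bp upstream lay 282 of 1004 summits (28.1%, exact 95% interval 25.3 to 31.0%) without a partner and 44 of 683 (6.44%, 4.72 to 8.55%) at divergent promoters. A summit between 2 divergent starts is measured to the nearer one, which caps its distance, so these distances are given without a test. Of the 1004 summits, 207 lay in an annotated exon, 254 in a protein-coding gene outside its exons and 543 outside exons and protein-coding genes. At the 500 bp limit, the nearest summits inside were those of CG5171 at 499 bp, pAbp at 497 bp and stv at −496 bp, with pooled signals of 164, 215 and 113. The nearest outside were t-cup at −503 bp, CG5065 at 503 bp and CG5973 at −504 bp, with 207, 96.9 and 242.

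**Figure D2:**
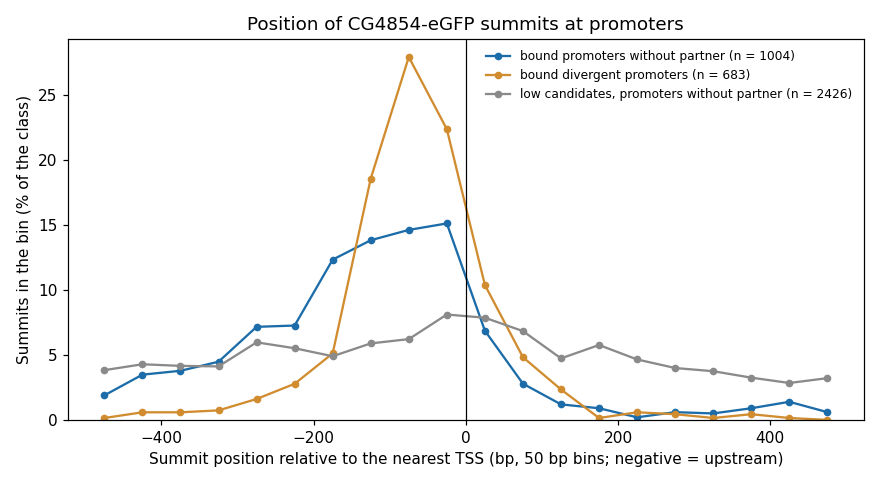
Share of summits (vertical, % of the class) in 50 bp bins of distance to the nearest TSS (horizontal, bp, negative upstream) for bound promoters without partner (n = 1004), bound divergent promoters (n = 683) and low candidates at promoters without partner (n = 2426). The bound promoters without partner have a shoulder that extends past 200 bp upstream, where 28.1% of their summits lie, against 6.44% of those at divergent promoters.

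Position and base composition varied with signal. The 1004 peaks were cut by signal into 4 bins of 251. In the strongest bin, 231 of 251 summits (92.0%) lay upstream with a median position of −159 bp, and in the weakest bin 185 of 251 (73.7%) with a median of −60 bp. The bins between had 86.1% and 84.5% upstream. Median GC content within 50 bp of the summit was 32.7, 35.6, 39.6 and 41.6% from the strongest to the weakest bin. Over all bound promoters without partner it was 37.6%, against 34.7% at divergent promoters and 40.6% among low candidates. The BEAF-32 core was present in 13.9% of the strongest bin and 29.1% of the weakest. GAGA elements were in 7.97% of the strongest and 15.9% of the weakest. TATAAA within 50 bp of the summit was in 22.3, 19.9, 9.16 and 13.9% from the strongest to the weakest bin. Ohler motif 7 was in 3.98, 7.17, 13.5 and 8.76% in the same order. Neither of these 2 changed steadily along the bins. These values describe the 1004 peaks and carry no test. TATAAA is rich in A and T, so its share moves with base composition, whose part was not tested.

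**Figure D3:**
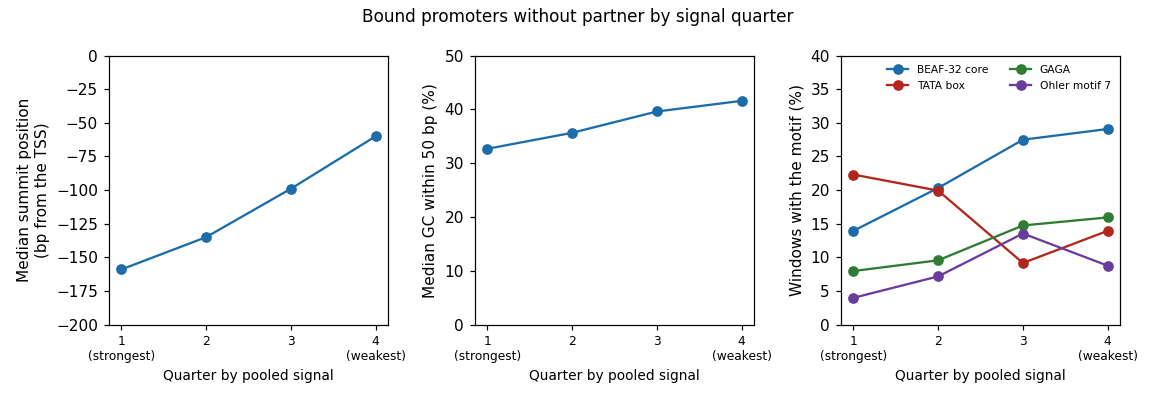
Median summit position (left, bp from the TSS), median GC content within 50 bp of the summit (middle, %) and share of windows with each of 4 motifs (right, %) in 4 bins of the 1004 bound promoters without partner, ordered from strongest to weakest pooled signal (251 peaks each). Position moves from −159 bp to −60 bp and GC content from 32.7% to 41.6% along the bins.

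Of the 18 motifs, 5 of promoter-binding and insulator proteins were more frequent at these summits than at low candidates. Low candidates were not matched for position. At or downstream of the TSS lay 15.9% of the 1004 summits and 46.9% of low candidates, and in the 100 bp upstream of it 29.8% and 14.3%. The part of position in the motif differences was not tested. Ohler motif 7 (CANCNCTA), a promoter element of broadly expressed fly genes, was within 50 bp of 84 of 1004 summits (8.37%, exact 95% interval 6.73 to 10.3%) and of 70 of 2426 low candidates (2.89%, 2.26 to 3.63%). The odds ratio was 3.07 (2.22 to 4.26, two-sided exact test, adjusted p over 18 motifs 3.89e-10). The BEAF-32 core (CGATA), bound by the insulator protein BEAF-32, was at 228 summits (22.7%) and at 389 low candidates (16.0%), with an odds ratio of 1.54 (1.28 to 1.85, exact test, adjusted p = 4.80e-05). Both motifs are short, and they are common at fly promoters in general. In the 100 bp upstream of 1 TSS for each of 13945 protein-coding genes, Ohler motif 7 was found at 6.81% and the BEAF-32 core at 28.5%. The BEAF-32 core was thus less frequent at the summits than in that stretch. Motifs were searched on both strands, and a match is a description of the letters and not a shown binding site.

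The other 3 were rarer. The CTCF core (AGNNGGCGC), recognised by the insulator protein CTCF, was at 24 summits (2.39%) and at 21 low candidates (0.866%), with an odds ratio of 2.80 (1.55 to 5.06, exact test, adjusted p = 0.00454). The DRE (TATCGATA), the site of the promoter factor DREF, was at 35 summits (3.49%) and at 44 low candidates (1.81%), with an odds ratio of 1.96 (1.25 to 3.07, exact test, adjusted p = 0.0177). The DRE contains the BEAF-32 core, and 193 of the 228 summits with that core had no DRE. The M1BP site (GGTCACAC), of the zinc finger protein M1BP, was at 30 summits (2.99%) and at 39 low candidates (1.61%), with an odds ratio of 1.89 (1.16 to 3.05, exact test, adjusted p = 0.0395). The shares in the 100 bp upstream of all genes were 1.25% for the CTCF core, 6.20% for the DRE and 3.08% for the M1BP site. The DRE was thus less frequent at the summits than in that stretch, and the M1BP site about as frequent. On the list of 1 replicate alone, the CTCF core had an odds ratio of 1.48 without replicate 2 and 1.85 without replicate 3, and the M1BP site 1.65 and 1.89, and neither passed the exact test on either list. All but Ohler motif 7 failed against all candidates below the reproducible set, and also in the stronger part of that set. Ohler motif 7 passed there with odds ratios of 1.69 and 2.01. Its share in the stronger part was 5.63%, below the 6.81% in the 100 bp upstream of all genes.

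At least 1 of the 5 was present at 313 of the 1004 promoters without partner (31.2%), at 34.8% of divergent promoters and at 20.0% of low candidates. The remaining 691 had none within 50 bp. Of the 25 strongest peaks, 2 had any of the 5. Where Ohler motif 7 was present, its median position was −37.5 bp from the TSS, and that of the DRE was −45 bp and that of the M1BP site −19.5 bp. The CTCF core lay further out, at a median of −152.5 bp, and 23 of 24 were upstream of the TSS. The median signal was 129 at the 84 summits with Ohler motif 7 and 149 at those without it.

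Of the 18 motifs, 2 were more frequent at promoters without partner than at divergent promoters. GAGA (GAGAG), the site of the GAGA factor encoded by Trl, was at 121 of 1004 summits (12.1%, exact 95% interval 10.1 to 14.2%) and at 43 of 683 divergent summits (6.30%, 4.59 to 8.39%). The odds ratio was 2.04 (1.42 to 2.93, two-sided exact test, adjusted p over 18 motifs 0.00137). The E-box variant CATATG was at 44 summits (4.38%) and at 12 divergent summits (1.76%), with an odds ratio of 2.56 (1.34 to 4.89, exact test, adjusted p = 0.0298). At promoters without partner the median position was −105 bp from the TSS for GAGA and −173 bp for CATATG. The rule that splits the 2 classes sets how far upstream a summit can lie. Motif tests against divergent promoters therefore cannot separate motif content from summit position. The E-box result did not pass on the list of either replicate alone, where the odds ratio was 1.94 without replicate 2 and 2.10 without replicate 3, nor with partners up to 1000 bp away (1.59). The DRE had 3.49% at promoters without partner and 6.30% at divergent promoters, with an odds ratio of 0.538 (0.340 to 0.849, exact test, adjusted p = 0.0541), and did not pass. Against low candidates, GAGA had 12.1% at bound promoters without partner and 14.6% at low candidates, with an adjusted p of 0.130 in the exact test. In the 100 bp upstream of all genes, GAGA was found at 13.6% and CATATG at 2.36%. The number of motifs that passed against divergent promoters, higher or lower, was 6 without replicate 2 and 1 without replicate 3. Neither GAGA nor CATATG passed in the stronger part of the reproducible set, where GAGA had an odds ratio of 1.45.

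**Figure D4:**
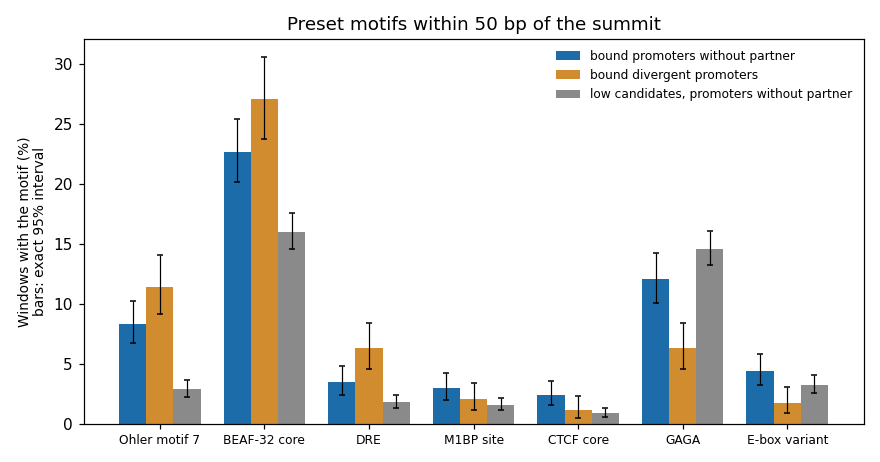
Share of 101 bp summit windows that hold each motif (vertical, %, bars with exact 95% intervals) at bound promoters without partner (blue), bound divergent promoters (orange) and low candidates at promoters without partner (grey). Ohler motif 7 is at 8.37% of the first class and 2.89% of low candidates, and GAGA is at 12.1% of the first class and 6.30% of divergent promoters. The E-box variant is at 4.38% of the first class and 1.76% of divergent promoters.

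The motifs not named above did not pass in either comparison. Su(Hw) and Pho sites had nearly equal shares at bound promoters without partner and low candidates, with 6.18% against 6.18% for the Su(Hw) core and 16.7% against 15.5% for the Pho site. The Zelda site, of the early embryonic activator Zelda, had 2.09% at bound promoters without partner and 2.23% at low candidates.

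Without preset motifs, 4 of the 32896 8-mers (0.0122%), counted together with their reverse complements, were more frequent at these summits than at low candidates at an adjusted p under 0.05 in Fisher's exact test, and none was less frequent. AACTATCG was at 30 summits and 11 low candidates, and ATCGATAG at 44 and 35. Both contain the BEAF-32 core on 1 strand. CAACACTG, which matches Ohler motif 7 in all but its last letter, was at 32 summits and 17 low candidates. AAATACCC was at 11 summits and 0 of 2426 low candidates. An unadjusted p under 0.05 in the exact test was found for 1134 8-mers, higher or lower. The number that passed, also in either direction, was 8 without replicate 2 and 13 without replicate 3. The 8-mer with the smallest p at peaks away from promoters, AGATGGCG, was at 19 of 1004 summits (1.89%) here and at 11 of 2426 low candidates (0.453%). Another 2 of the 10 chosen away from promoters had shares of that kind. GATGGCGC was at 16 summits and 10 low candidates, and CACTGTGC at 20 summits and 16 low candidates. AGATGGCG matches the CTCF core in all but that motif's last letter, and GATGGCGC in all but its first. These 2 overlap each other and that motif, so they are not separate observations. How many summits they share is not given here. None of the 3 passed the exact test, with adjusted p of 0.276 for AGATGGCG, 0.526 for GATGGCGC and 0.616 for CACTGTGC. AACAAATA, chosen in the same way, had 2.19% at summits and 2.35% at low candidates.

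The genes themselves differed from unbound ones in their core promoter. Bound and unbound genes were not matched for expression, and these elements were not counted at bound divergent promoters. A TATA box (TATAAA) 45 to 15 bp upstream of the TSS was found at 31 of 925 bound genes (3.35%, exact 95% interval 2.29 to 4.72%) and at 1028 of 9142 unbound genes without partner (11.2%, 10.6 to 11.9%). The odds ratio was 0.274 (0.190 to 0.394, two-sided exact test, adjusted p over 8 elements 3.86e-16). Among the bound genes with a TATA box, the strongest peak was at Hsp27, a small heat shock protein gene, with a pooled signal of 506, and cact, the Drosophila inhibitor of Dorsal, had 264. Ohler motif 7 from 150 bp upstream to 50 bp downstream was at 122 bound genes (13.2%) and at 6.25% of unbound genes, with an odds ratio of 2.28 (1.85 to 2.81, exact test, adjusted p = 2.23e-12). The M1BP site was at 61 bound genes (6.59%) and at 3.65% of unbound genes, and the DRE at 77 bound genes (8.32%) and at 5.39% of unbound genes. Their odds ratios were 1.86 (1.40 to 2.47, exact test, adjusted p = 1.43e-04) and 1.59 (1.24 to 2.05, exact test, adjusted p = 0.00112). The downstream promoter element (DPE), a short degenerate element within genes, was at 240 bound genes (25.9%) and at 22.7% of unbound genes, with an odds ratio of 1.19 and an adjusted p of 0.0428 in the exact test. The DPE did not pass when 1 TSS rule was used for bound and unbound genes (odds ratio 1.14, exact test, adjusted p = 0.158), without replicate 3 (1.12), with a TSS window of 250 bp (1.07) or with partners up to 1000 bp away (1.16). In the stronger part of the reproducible set the TATA box alone of the 5 passed. The initiator was at 15.2% of bound genes and at 15.3% of unbound genes.

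Bound promoters were a minority. A reproducible summit within 500 bp of any TSS was found at 988 of 10130 genes without partner (9.75%, exact 95% interval 9.18 to 10.3%), beside 566 of 1843 divergent pairs (30.7%, 28.6 to 32.9%), where each pair counts as 1 and offers at least 2 starts. Among genes with 1 annotated TSS the share was 6.34%. Genes with more starts have more chances to be counted, and the share with a peak of the kind described was 5.78% with 1 TSS, 14.3% with 2 and 30.1% with 3 or more. A peak at the nearest TSS was found at 925 of 10130 genes without partner, 9.13%, and the gene lists are set beside this share.

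Cytosolic ribosomal protein genes stood highest among the lists. Of 56 without a partner, 33 held a peak (58.9%, exact 95% interval 45.0 to 71.9%), beside 9.13% of all genes without partner. Their pooled signals ran from 98.6 to 649 with a median of 167. RpL30, of the large subunit, had 649 in the pooled list, 379 in replicate 3 and 270 in replicate 2. RpL23A had 497 in the pooled list, 259 in replicate 3 and 247 in replicate 2. RpL24 had 396, with 194 in replicate 3 and 202 in replicate 2, and the small-subunit gene RpS26 had 380, with 169 in replicate 3 and 217 in replicate 2. The replicate order varied at these 4, and replicate 3 was the higher at 22 of the 32 found in both lists. Summits at the 33 genes lay close to the TSS, with a median of −25 bp and quartiles of −52 and −12, against −114.5 bp over all 1004. Within 100 bp of the TSS lay 31 of the 33. In these windows 17 had the BEAF-32 core, 6 Ohler motif 7, 3 a DRE and 3 an M1BP site. A TCT initiator, the polypyrimidine start known at ribosomal protein genes, was found at 11 of the 33 with the letters searched, and a TATA box at 1. Over all genes the TCT initiator was at 42 of 925 bound genes (4.54%) and at 326 of 9142 unbound genes (3.57%). That difference did not pass (exact test, adjusted p = 0.161). The list was described by its counts and no set test was made.

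The 3 lists of insulator and promoter factors, Polycomb and Trithorax groups and translation factors had intervals above 9.13%, the last of them barely. The intervals were not adjusted over the 22 lists, and no set test was made. The number of starts per gene was not matched either, and the share with a peak rises with it. Of the insulator and promoter factors, 5 of 11 without partner held a peak (45.5%, exact 95% interval 16.7 to 76.6%). They included Trl, which encodes the GAGA factor, at 205 in the pooled list, with 78.9 in replicate 3 and 129 in replicate 2. BEAF-32 had 158, with 90.6 in replicate 3 and 75.9 in replicate 2, CTCF had 118, with 65.5 in replicate 3 and 55.0 in replicate 2, and lola had 209, with 69.0 in replicate 3 and 141 in replicate 2. Of the Polycomb and Trithorax groups, 7 of 17 held a peak (41.2%, 18.4 to 67.1%). ph-p led them, and Pc, the chromodomain protein of the group, had 115, with 46.2 in replicate 3 and 60.3 in replicate 2. The list also held kis at 120 and jing at 135. Of 32 translation factors, 7 held a peak (21.9%, 9.28 to 39.97%), with eIF6 at 626 and eEF1gamma at 405. Of 27 cell cycle and DNA replication genes, 6 held a peak (22.2%, 8.62 to 42.3%, which includes 9.13%), with BubR1, a spindle checkpoint kinase, at 156, RnrS, a ribonucleotide reductase subunit, at 149, and polo, a mitotic kinase, at 129.

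The intervals of the other lists included 9.13%, except those of chemoreceptor and cuticle protein genes, which had no peak. Of 53 oxidative phosphorylation genes 5 held a peak (9.43%), with ND-75 of complex I at 280. Of 24 proteasome genes 2 held a peak, Rpn11 at 109 and Rpn10 at 102. Of 22 mitochondrial ribosomal protein genes 2 held a peak, mRpL41 at 938 and mRpL4 at 132. Of 27 ZAD zinc finger genes 2 held a peak, Phs at 223 and idc at 195. Of 30 segmentation genes 3 held a peak, nkd at 176, bcd at 169 and cnc at 157. Of 25 muscle genes 4 held a peak, led by Msp300 at 267, and of 29 neural genes 4, led by elav, an RNA-binding protein of neurons, at 460. Heat shock proteins had 3 of 20, with Hsp27 at 506, Hsp26 at 160 and Hsp60A at 100.4. Aminoacyl tRNA synthetases had 2 of 13, RNA polymerase and basal factors 4 of 27, Mediator 1 of 8, the spliceosome 1 of 11, and vacuolar ATPase and Rab GTPases 1 of 20 each. None of 163 chemoreceptor genes held a peak, which allows a share of up to 1.84% from 3 counts, and none of 119 cuticle protein genes, which allows up to 2.52%. None of 8 Hox genes held one, which allows up to 37.5%.

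**Figure D5:**
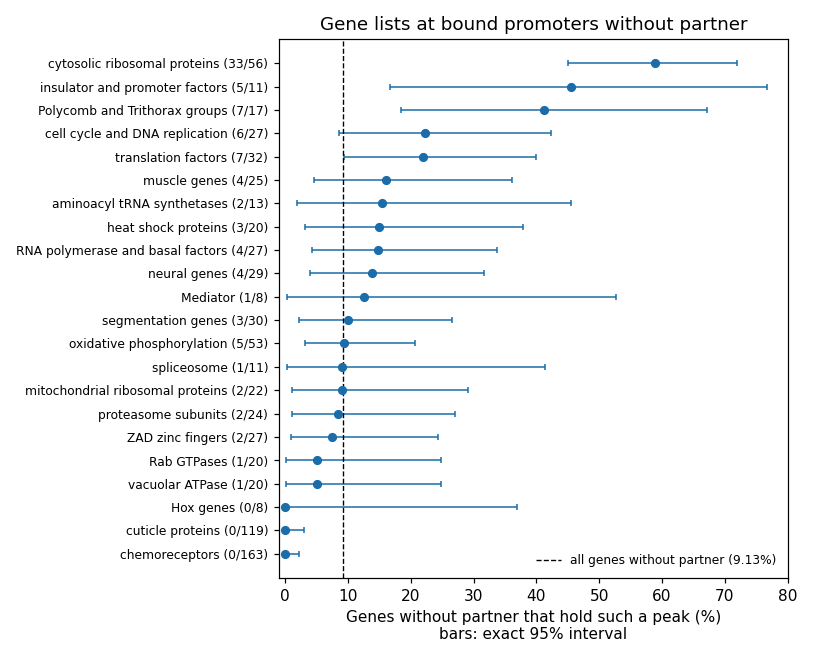
Share of genes without partner that held a peak of this kind (horizontal, %, points with exact 95% intervals) in 22 gene lists, each with its counts, and the share over all genes without partner, 9.13%, as a dashed line. Cytosolic ribosomal protein genes stand at 58.9%, and chemoreceptor and cuticle protein genes at 0.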

How the data were processed

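Peak lists from 2 ChIP-seq samples, biological replicates 3 and 2, were used as the authors deposited them, on dm6. The signal is the authors' score for each peak. A further deposited column gives −log10 of the q-value and is constant in the reproducible set, so it ranked nothing. For the aligner, peak caller, reproducibility threshold and read depth, the entry is: not given in the sources used here. In the pooled list of 30000, the reproducible set of 3106 peaks was the 3106 highest entries, and each replicate had its own list of 30000. The submitters' text says that both replicate lists share 1 control file.

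Ensembl release 115 (BDGP6 version 54) gave 19607 TSSs of 13945 protein-coding genes on the main chromosome arms. A gene was counted as having a partner when any of its TSSs had one. This reading was chosen over one that judges the nearest TSS alone (1097 peaks) because it gave the number nearer to that stated with the rule, after both counts were seen. Of the 1004 peaks, 16 share an interval with another.

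Comparisons used Fisher's exact test, two-sided, on counts of peaks or genes, with Benjamini-Hochberg adjustment within a family and 0.05 as threshold. Families were 4 peak properties, 18 motifs, 8 core promoter elements and 32896 8-mers. Intervals are 95%, by the exact Clopper-Pearson method for shares and by Woolf's for odds ratios. Beside a count of 0 stands the limit from 3 counts. All cover counting error only. Peaks and genes are not biological replicates, so p-values measure spread over peaks of these 2 libraries. In the core promoter tests, bound genes used the TSS nearest to the summit and unbound genes the TSS with most transcripts. Alternatives covered the TSS window, the partner distance, the sequence window, the low candidates, the match between replicates, a stricter set and each replicate left out.

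The 25 strongest peaks, up to 4 genes per list by signal, the 3 weakest, those nearest the distance limit, the 3 most unequal between replicates on each side and 10 8-mers chosen away from promoters were named by rule. Of the windows that rule allowed, 10 sequences are shown. Members and lists were chosen with earlier results of these data known. Of the listed gene symbols, 5 had no match. Values by signal bin and the details on ribosomal protein genes were added after the results were seen. Python 3.11.15 and scipy 1.17.1 were used, and the tests were tested on simulated data.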

Additional observations from a re-analysis of the deposited data

How the results depend on the processing

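Ohler motif 7 against low candidates, the TATA box against unbound promoters and the upstream share against low candidates kept their direction and passed under every alternative run for them. None of these alternatives matched the low candidates for position. The numbers of motifs, 8-mers and core promoter elements given below count those that passed in either direction, more frequent or less. With the stronger part of the reproducible set, the odds ratio for upstream summits against divergent promoters, which the partner rule itself bears on, was 2.17, that for signal above the median was 1.20 and that for presence in both replicates 0.742, both turned round and not passed. The same set gave 3 motifs against low candidates, Ohler motif 7 the one among them that is in the main 5, 0 motifs against divergent promoters (2 at an unadjusted p under 0.05 in the exact test), 1 8-mer, 1 core promoter element (the TATA box) and 5.005% of promoters bound. With partners up to 1000 bp away, signal had an odds ratio of 0.825 and did not pass, 4 motifs passed against divergent promoters and 8.93% of promoters were bound. TSS windows of 250 bp and 1000 bp gave 1 and 4 motifs against divergent promoters, 2 and 20 8-mers and 7.39% and 12.4% of promoters bound. Sequence within 25 bp and 100 bp of the summit gave 1 and 8 motifs against divergent promoters and 0 and 35 8-mers (602 and 1917 at an unadjusted p under 0.05 in the exact test). All candidates below the reproducible set gave 1 motif and 0 8-mers (1095 at an unadjusted p under 0.05 in the exact test). A partner judged at the nearest TSS, an alternative chosen after seeing the data, gave an odds ratio of 1.34 for upstream summits, 4 motifs against divergent promoters and 10.4% of promoters bound. The other added alternative, 1 TSS rule for bound and unbound genes, gave 5 core promoter elements, but without the DPE (odds ratio 1.14). Leaving out 1 replicate gave odds ratios of 0.992 to 1.54 for upstream summits, turned round without replicate 2, and of 0.755 to 0.840 for signal, 3 to 4 motifs against low candidates, 1 to 6 against divergent promoters, 8 to 13 8-mers, 4 to 6 core promoter elements and 9.62% to 10.2% of promoters bound. Presence in both replicates has no value without a replicate. The cause of these changes was not tested. Read depth is unknown, so its limit on weak peaks cannot be given. No paired analysis was possible because there is only 1 group.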

Other observations

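Some genes held several of these peaks. Of the 925 genes, 857 held 1, 60 held 2, 6 held 3, 1 held 4 and 1 held 5. Rtnl1 held 5, with pooled signals of 659, 335, 144, 138 and 96.6 near 4 of its alternative starts. Ptpmeg2, a protein tyrosine phosphatase gene on the X chromosome, held 4, with 472, 451, 252 and 113, at a different start each. The phosphodiesterase gene dnc held 3, with 531, 373 and 113.

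The upstream neighbourhood was described by the nearest protein-coding gene. Of the 925 bound genes, 94 (10.2%, exact 95% interval 8.29 to 12.3%) started inside another gene, against 1775 of 9142 unbound genes without partner (19.4%, 18.6 to 20.2%). A neighbour on the same strand lay upstream of 506 bound genes (54.7%) and of 4594 unbound genes (50.3%), and a neighbour on the opposite strand of 324 bound genes (35.0%) and of 2767 unbound genes (30.3%). A noncoding gene transcribed away within 500 bp lay at 28 of 925 bound genes (3.03%, 2.02 to 4.35%) and at 199 of 9142 unbound genes (2.18%, 1.89 to 2.50%), so few of these promoters have a noncoding partner in the annotation. The strongest of these peaks were at brwl, beside lncRNA:CR44149, with 638, and at eIF6, beside asRNA:CR45928, with 626. These differences were not tested. The share of genes without partner that held a peak was between 7.58% and 9.82% on each of the 6 chromosome arms. The X chromosome held 16.4% of these peaks and 9.37% of the divergent ones. It also held 1630 of the 10130 genes without partner. Divergent pairs on the X were not counted, so the 2 shares do not compare binding.

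The letters GGGTAT, looked for after AAATACCC had been seen, were within 50 bp of 57 of 1004 summits (5.68%, exact 95% interval 4.33 to 7.29%), of 19 of 683 divergent summits (2.78%, 1.68 to 4.31%), of 67 of 1419 summits away from promoters (4.72%, 3.68 to 5.96%) and of 72 of 2426 low candidates (2.97%, 2.33 to 3.72%). From the strongest to the weakest of the 4 signal bins they were at 14, 18, 12 and 13 summits, while ATCGATAG was at 5, 10, 13 and 16. AGATGGCG was at 1.89% of the 1004 summits, at 0.293% of divergent summits and at 1.69% of those away from promoters. No test was made of GGGTAT, which was chosen on these peaks, nor of the values by bin or between these classes.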
